A study of Mus musculus with 12 samples.

Results

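Epidermal genes that encode no keratin (Alox12b, Dsg3, Sfn, Krtdap, Lgals7, Mall, Nccrp1, Aldh3a1, Aqp3 and Cyp4f39) were followed across reprogramming of mouse embryonic fibroblasts (MEF) to pluripotency. These are 10 of the 19938 genes that the arrays measured with a probe set of a single symbol. The genes were chosen from these same measurements, for their signal on the array of wild-type cells at day 8 and on that of Mbd3flox/- cells at day 4 against the other arrays of treated cells. That contrast is therefore given as a description, with no test.

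The epidermis renews itself from basal cells that move outward, stop dividing and turn into a cornified layer. Its water barrier is made of lipids that are oxidised and bound to a protein envelope, and its strength comes from desmosomes, the junctions that hold neighbouring cells together. MEF and embryonic stem cells do not belong to a stratified epithelium, and loss of fibroblast features with gain of epithelial ones is a known early part of reprogramming.

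The study profiled RNA on 12 arrays, 1 for each genotype and stage, in a study of reprogramming with and without full levels of Mbd3, which belongs to the chromatin repressor complex NuRD. The wild-type (WT, Mbd3+/+) MEF and the Mbd3flox/- (flox/-) MEF both carried transgenes that doxycycline (DOX) switches on, for Oct4, Sox2, Klf4 and Myc (OSKM). DOX arrays came from WT cells at days 4, 8 and 11 and from flox/- cells at days 4 and 8. The 3 MEF arrays were WT and flox/- before DOX, and Mbd3-/- (-/-), whose stage label says MEF alone. The 4 pluripotent arrays were induced pluripotent stem cells (iPSC) of WT and flox/- cells and embryonic stem cells (ESC) of WT and -/- genotype; the labels name no transgene for either ESC line or for the -/- MEF. Flox/- cells hold a floxed and a deleted copy of Mbd3, and the labels do not say from how many embryos or clones any array came. Per the labels' growth protocol the cells were kept on irradiated feeder MEF, whose RNA can be part of a sample.

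Signal is given in log2 units throughout, after quantile normalization of the values deposited by the authors, so that a difference of 1 is a 2-fold difference. The median of each array was 6.31 and its lower quartile 4.68, and signal near the lower quartile is close to background, so that folds from such levels are limited by it. Mbd3 signal was 8.995 to 9.67 on the 6 WT arrays, 8.73 to 9.11 on the 4 flox/- arrays, 8.15 in -/- MEF and 6.73 in -/- ESC. The WT day 8 and WT ESC arrays had been published in an earlier series, and 1 label of the WT day 8 array names day 4 while its title and stage name day 8. In cell mixtures, more cells of a type and more RNA per cell cannot be told apart.

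The genes are introduced here with the upstream sequence of those for which RefSeq's GRCm38.p6 table gave 250 bases that lie wholly outside the gene. Krtdap (chr7:30787655-30787904, plus strand) encodes a small secreted protein of differentiating keratinocytes. Aqp3 (chr4:41098184-41098433, minus strand) encodes a channel for water and glycerol of basal keratinocytes. Both were high on WT day 8 and flox/- day 4. Alox12b (chr11:69156822-69157071, plus strand) encodes a lipoxygenase that oxidises the barrier ceramides, and its signal was high on WT day 8 alone. Sfn (chr4:133602169-133602418, minus strand) encodes 14-3-3 sigma, the member of the 14-3-3 family found mainly in epithelia, and was also high in pluripotent cells. Capitals mark matches, on either strand, to the motifs of AP-1 (TGANTCA), AP-2 (GCCNNNGGC) and grainyhead-like factors (AACNNGTT), which are known regulators in epidermis, and to the TATA box (TATAAA).
Krtdap: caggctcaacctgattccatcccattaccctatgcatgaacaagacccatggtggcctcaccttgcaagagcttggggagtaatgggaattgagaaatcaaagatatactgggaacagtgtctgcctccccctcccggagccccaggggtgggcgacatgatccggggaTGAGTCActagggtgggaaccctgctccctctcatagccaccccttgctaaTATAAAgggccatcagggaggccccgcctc
Aqp3: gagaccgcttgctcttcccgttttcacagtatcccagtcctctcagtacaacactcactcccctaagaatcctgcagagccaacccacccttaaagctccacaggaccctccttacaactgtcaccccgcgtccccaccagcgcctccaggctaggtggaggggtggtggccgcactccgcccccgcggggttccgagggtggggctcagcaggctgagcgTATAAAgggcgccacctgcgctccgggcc
Alox12b: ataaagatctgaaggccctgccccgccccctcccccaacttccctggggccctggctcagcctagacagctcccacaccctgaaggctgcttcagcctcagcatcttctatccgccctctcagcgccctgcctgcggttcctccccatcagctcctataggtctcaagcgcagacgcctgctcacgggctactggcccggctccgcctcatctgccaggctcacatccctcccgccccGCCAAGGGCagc
Sfn: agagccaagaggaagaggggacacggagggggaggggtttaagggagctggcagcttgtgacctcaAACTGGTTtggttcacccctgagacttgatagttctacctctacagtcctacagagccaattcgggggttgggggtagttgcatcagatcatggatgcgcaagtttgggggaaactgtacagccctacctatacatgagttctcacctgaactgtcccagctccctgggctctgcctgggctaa

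The table held upstream sequence for 7 of the 10 genes, and for 4 of these, shown above, it lay outside the gene; motifs were searched in all 7. An AP-1 match was in 1 of the 7, that of Krtdap, and in 6.73% of the 32536 different stretches of this length in the table. The AP-2 match of Alox12b (13.8% of all stretches) and the grainyhead-like match of Sfn (3.62%) were likewise in 1 of 7 each. The TATA box was in 2 of 7, Krtdap and Aqp3, against 12.3% of all, and lay 30 and 29 bases before the start of transcription. The Klf motif CACCC, not in capitals above, was in 5 of 7 against 52.1%. The octamer ATGCAAAT (1.62% of all) and the p53 family motif (a single arm of the full site) (7.12%) were in 0 of 7. CACCC was thus the only searched motif found for most of the 7, and it is short and common. A match is a description of letters and not of binding.

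All 10 genes had their highest signal of the 12 arrays on WT day 8. On 7 of them the next highest array was flox/- day 4. Beyond these arrays the genes differed: 6 were below the array median everywhere else, Aqp3 and Sfn were high in pluripotent cells too, Aldh3a1 was high at WT days 4 and 11, and Cyp4f39 was above the median on WT ESC and flox/- day 8. WT day 8 was above the other 11 arrays for 16.4% of the 13044 genes kept (those above the array median on at least 1 array), and by more than 2-fold for 3.74% of them. The margin passed 2-fold for 9 of the 10 members, all but Cyp4f39, and 8-fold for Mall, Alox12b, Nccrp1 and Dsg3, 4 of 10 members against 0.567% of all genes. Against the other 4 DOX arrays alone, WT day 8 was above for 10 of 10 members and 26.8% of all genes. All 10 members were kept, but 3 passed through WT day 8 alone and 3 through WT day 8 and flox/- day 4 alone, so the counts over members describe the choice and support nothing.

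**Figure D1:**
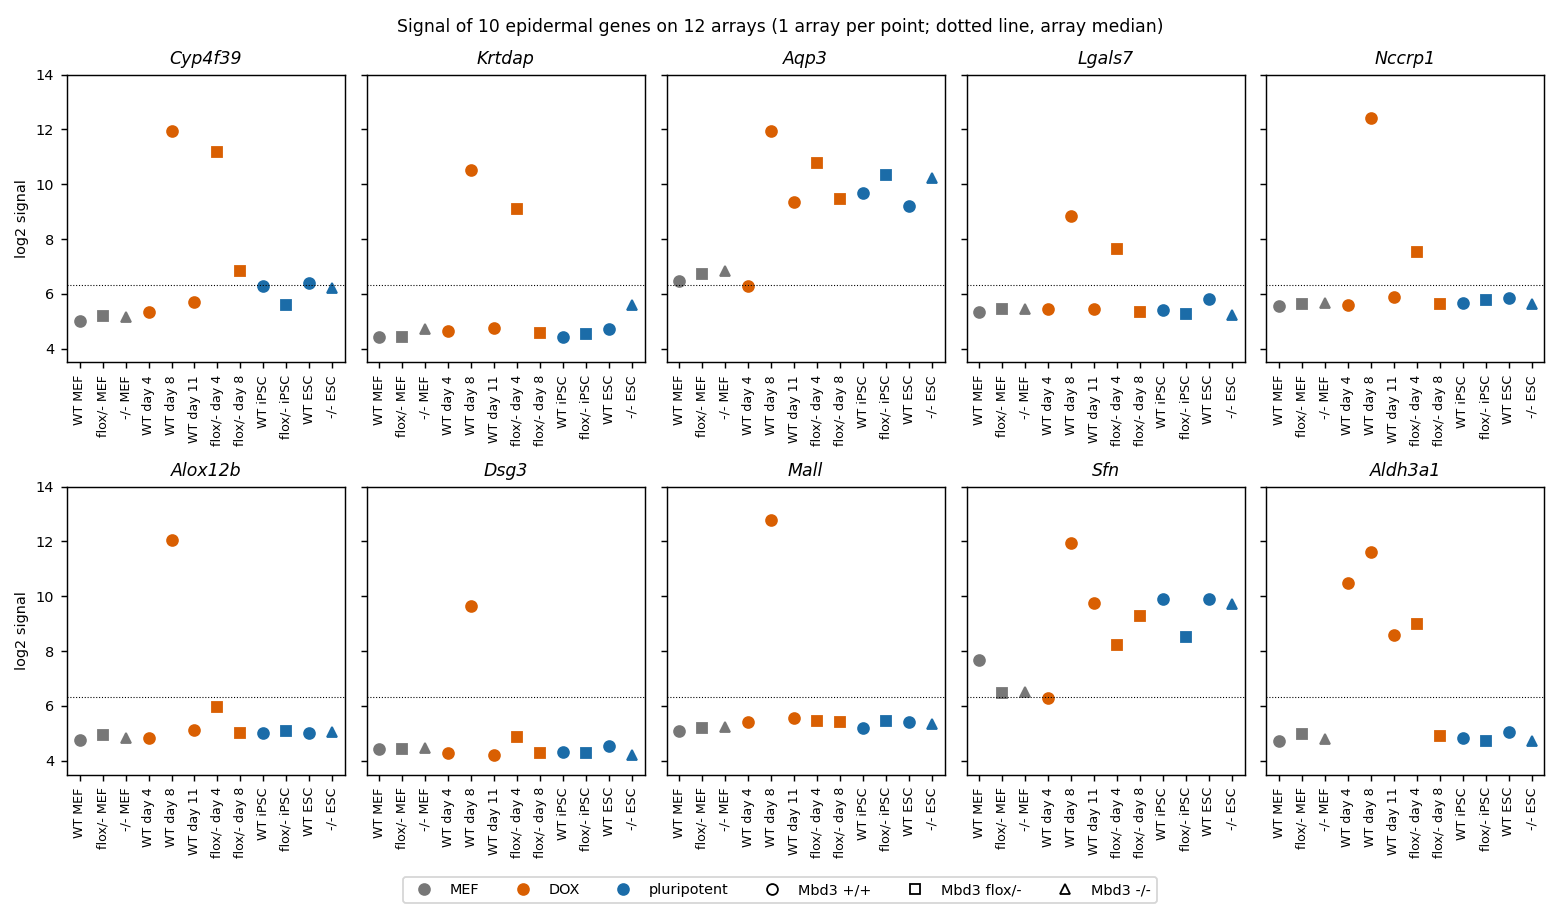
Log2 signal (vertical axes) of the 10 genes on each of the 12 arrays (horizontal axes), with 1 point per array, the colour giving the state (MEF, DOX or pluripotent) and the shape the Mbd3 genotype; the dotted line is the array median of 6.31. WT day 8 is the highest point in every panel, and flox/- day 4 stands clear of the other DOX arrays in the upper row but not for Mall, Sfn or Aldh3a1.

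Among the enzymes of the lipid barrier, Alox12b had a signal of 12.07 on WT day 8. It was 4.75 in WT MEF, 4.95 in flox/- MEF and 4.84 in -/- MEF, 4.85 on WT day 4, 5.12 on WT day 11, 5.96 on flox/- day 4 and 5.01 on flox/- day 8. In the pluripotent lines it was 5.02 (WT iPSC), 5.09 (flox/- iPSC), 5.01 (WT ESC) and 5.04 (-/- ESC). WT day 8 thus stood 69.0-fold above the next array, flox/- day 4, which was itself 1.79-fold above the highest of the other 3 DOX arrays.

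Cyp4f39 encodes a cytochrome P450 that hydroxylates the end of very long fatty acids, a step that comes before the lipoxygenases in building barrier lipids. Its signal was 11.95 on WT day 8 and 11.18 on flox/- day 4. On the other DOX arrays it was 5.36 (WT day 4), 5.71 (WT day 11) and 6.85 (flox/- day 8). MEF ranged from 5.003 to 5.21 and pluripotent lines from 5.58 in flox/- iPSC to 6.40 in WT ESC. The lower of the high arrays was 20.1-fold above flox/- day 8, the largest such gap of all 13044 genes kept. Alox12b and Cyp4f39, which serve the same barrier lipids, thus differed on flox/- day 4: the difference from flox/- MEF was 1.01 for Alox12b and 5.97 for Cyp4f39.

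Of the adhesion and membrane genes, Dsg3 encodes the desmosomal cadherin of the lower epidermal layers. Its signal was 9.64 on WT day 8, 4.87 on flox/- day 4 and 4.20 to 4.30 on the other 3 DOX arrays. It was 4.42 to 4.45 in MEF and 4.21 to 4.54 in pluripotent lines, all at or below the lower quartile of the arrays. WT day 8 was 27.3-fold above flox/- day 4, and flox/- day 4 was 1.48-fold above WT day 4.

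Mall encodes a proteolipid of the MAL family that resides in lipid rafts. Its signal was 12.77 on WT day 8 and between 5.08 (WT MEF) and 5.57 (WT day 11) on the other 11 arrays. The margin of 148-fold over the next array was the largest of all genes kept. On flox/- day 4 it was 5.45, between WT day 11 and WT day 4 (5.41), so that Mall did not follow the contrast by which the genes were chosen.

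Among the secreted and cytoplasmic proteins of differentiating layers, Krtdap had a signal of 10.53 on WT day 8 and 9.09 on flox/- day 4. It was 4.63 on WT day 4, 4.77 on WT day 11 and 4.57 on flox/- day 8, and 4.42 to 4.71 in MEF. Pluripotent lines had 4.41 to 4.71 except -/- ESC, at 5.58. The gap of 19.9-fold between flox/- day 4 and WT day 11 was the second of all genes kept.

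Lgals7 encodes galectin-7, a sugar-binding protein of stratified epithelia. It was 8.83 on WT day 8 and 7.64 on flox/- day 4, against 5.45 (WT day 4), 5.46 (WT day 11) and 5.33 (flox/- day 8). MEF had 5.32 to 5.44 and pluripotent lines 5.24 to 5.81, with WT ESC highest. The gap was 4.51-fold.

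Nccrp1 encodes a protein with an F-box-associated domain that is found in squamous epithelia. Its signal was 12.43 on WT day 8, 7.54 on flox/- day 4, and 5.59 to 5.87 on the other DOX arrays. MEF had 5.54 to 5.68 and pluripotent lines 5.62 to 5.86. WT day 8 was 29.7-fold above flox/- day 4, which was 3.17-fold above WT day 11, so the order of these arrays was that of Alox12b with flox/- day 4 further from the rest.

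Sfn was measured by 2 probe sets, which correlated over the 12 arrays (r = 0.98). By the probe set with the higher mean, it was 11.96 on WT day 8, 9.76 on WT day 11, 9.29 on flox/- day 8, 8.22 on flox/- day 4 and 6.28 on WT day 4. In MEF it was 7.67 (WT), 6.47 (flox/-) and 6.50 (-/-). In pluripotent lines it was 9.90 (WT iPSC), 8.51 (flox/- iPSC), 9.88 (WT ESC) and 9.70 (-/- ESC). Here flox/- day 4 lay below WT day 11 and flox/- day 8, by 2.91-fold from the former, while WT day 8 exceeded the next array, WT iPSC at 9.90, by 4.18-fold.

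Of the enzymes and channels that epidermis shares with other epithelia, Aldh3a1 encodes an aldehyde dehydrogenase abundant in cornea. It was high on 4 of the 5 DOX arrays: 11.61 on WT day 8, 10.47 on WT day 4, 8.998 on flox/- day 4 and 8.60 on WT day 11. It was 4.90 on flox/- day 8, within 4.71 to 5.04, the range of the MEF and pluripotent arrays. Aldh3a1 was the member with high signal on WT day 4, where it stood 53.9-fold above WT MEF.

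Aqp3 was 11.93 on WT day 8 and 10.78 on flox/- day 4, then 9.45 on flox/- day 8, 9.34 on WT day 11 and 6.30 on WT day 4. MEF had 6.47 to 6.85. Pluripotent lines had 9.22 to 10.33, so that flox/- day 4 exceeded all of them and WT day 11 and flox/- day 8 lay within or near their range. The gap between flox/- day 4 and flox/- day 8 was 2.52-fold.

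By the contrast that chose the members, WT day 8 and flox/- day 4 both lay above the other 3 DOX arrays for 7 of 10 members and for 16.6% of all genes kept. They did so by more than 2-fold for 5 members (Cyp4f39, Krtdap, Lgals7, Nccrp1 and Aqp3) and for 0.828% of all, which is 108 genes. By size of this gap the members ranked 1, 2, 12, 31 and 66 of 13044, then 153 (Alox12b), 283 (Dsg3), 3229 (Mall), 11027 (Aldh3a1) and 11155 (Sfn). Without flox/- day 4, WT day 8 alone stood above the other 3 by 2-fold for all 10 members and 928 genes. Without WT day 8 or WT day 4 the count of genes was 225 or 229, and the gap changed sign for Mall without WT day 11 (from -0.12 to 0.03) and for Aldh3a1 without WT day 4 (from -1.48 to 0.40). The median gap was 1.09 over the members and -0.48 over all genes kept. Of genes outside the members, those with the largest gaps were the embryonic globin gene Hbb-y (3.72), Klk10 (3.19), Plek2 (3.15) and Cyp2s1 (2.998).

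**Figure D2:**
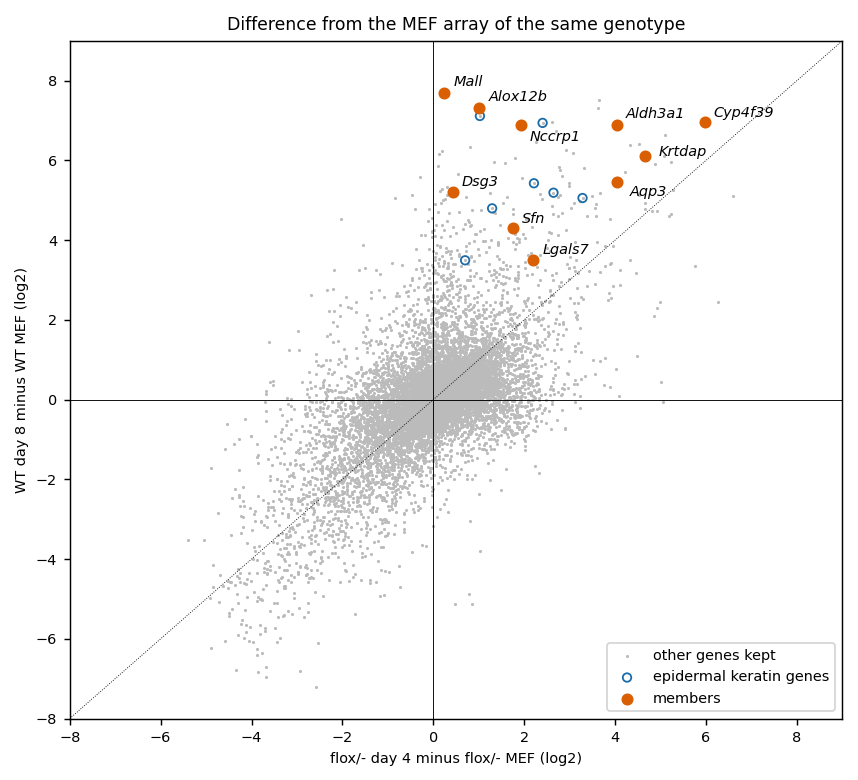
Difference from the MEF array of the same genotype for flox/- day 4 (horizontal axis, log2) and WT day 8 (vertical axis, log2), with each kept gene as a grey point, the members in orange and 7 keratin genes of the epidermis as blue circles; the dotted line marks equal differences. All 10 members lie above 3.5 on the vertical axis, while on the horizontal axis they spread from 0.24 (Mall) to 5.97 (Cyp4f39).

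Each array was also set against the MEF array of its own genotype, with 1 array on either side and no test. The members were chosen for signal on WT day 8 and flox/- day 4, so the counts on these arrays describe the choice. On WT day 8 all 10 members were more than 2-fold higher than WT MEF, as were 12.4% of all genes kept, with differences from 3.51 (Lgals7) to 7.69 (Mall). On flox/- day 4, 8 members were more than 2-fold higher than flox/- MEF (13.5% of all), and Dsg3 (0.42) and Mall (0.24) were higher by less than that. The median difference of the members was 6.50 on WT day 8 and 2.06 on flox/- day 4, against 0.07 and 0.06 over all genes kept.

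On the remaining DOX arrays few members exceeded MEF by 2-fold. On WT day 4 only Aldh3a1 did so (5.45% of all genes), and Sfn was lower by more than 2-fold (-1.39, with 6.94% of all genes lower). By its other probe set Sfn was 6.19 on WT day 4 and 7.05 in WT MEF, less than 2-fold apart. On WT day 11 the members above MEF by 2-fold were Aldh3a1 (3.88), Aqp3 (2.88) and Sfn (2.10), against 11.6% of all genes. On flox/- day 8 they were Sfn (2.82), Aqp3 (2.72) and Cyp4f39 (1.64), against 15.8%. None of the 10 members was lower than MEF by 2-fold on WT day 8 (12.7% of all genes), WT day 11 (13.0%), flox/- day 4 (15.1%) or flox/- day 8 (20.9%). On each MEF array 8 of the 10 were below the array median, so most had little room to fall. WT day 8 and flox/- day 4 are also the arrays that chose the members. Of the pluripotent lines, WT iPSC (15.9% of all genes), WT ESC (15.9%) and -/- ESC (15.1%) each had 3 members more than 2-fold above the MEF of their genotype, and flox/- iPSC had 2 (16.2%).

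For most members the signal did not increase from day to day in either genotype. In WT, all 10 members were more than 2-fold lower on day 11 than on day 8, as were 11.4% of all genes. Mall was 148-fold lower, Alox12b 124-fold, and Aqp3 and Sfn least, 6.02-fold and 4.59-fold. In flox/- cells Cyp4f39 and Krtdap went from 11.18 and 9.09 on day 4 to 6.85 and 4.57 on day 8, and of the 10 members Sfn alone was higher on day 8 (9.29) than on day 4 (8.22). WT day 8 and flox/- day 4 are the arrays for which the members were chosen, and WT day 11 and flox/- day 8 are among those set against them. The falls from day to day therefore describe the choice and support nothing. The arrays are of different cultures as far as the labels show, so they give no course of 1 culture.

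At day 4 the genotypes differed in the members, with 1 array each. On flox/- day 4, 7 members were more than 2-fold higher than on WT day 4 (4.82% of all genes kept). They were Cyp4f39 (56.5-fold), Aqp3 (22.2-fold), Krtdap (21.96-fold), Lgals7 (4.55-fold), Sfn (3.85-fold), Nccrp1 (3.84-fold) and Alox12b (2.16-fold). Aldh3a1 was 2.78-fold lower (8.04% of all genes were lower by 2-fold), and Dsg3 and Mall lay within 2-fold. At day 8 all 10 members were higher in WT than in flox/- cells, from 5.61-fold (Aqp3) to 164-fold (Mall). Of all genes, 18.7% were higher by more than 2-fold. The order of day 4 was thus turned for the 7 members named, while Aldh3a1 was higher in WT on both days. The members were chosen for signal on WT day 8 and flox/- day 4 against the other DOX arrays. These counts and the turned order therefore describe the choice and support nothing. Genotype, culture and, at day 8, series cannot be told apart in these comparisons.

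The WT day 8 array and the WT ESC array came from the same earlier series, and within it all 10 members were higher on WT day 8 by more than 2-fold (13.9% of all genes kept). The difference ran from 2.08 (Sfn) to 7.37 (Mall), with a median of 5.69 against -0.02 over all genes. WT day 8 is an array that chose the members, so this too describes the choice. Within the later series, flox/- day 4 was above WT day 4, WT day 11 and flox/- day 8 for 7 members (31.6% of all genes) and by more than 2-fold for 5 (1.72%). These 5 were Cyp4f39, Krtdap, Lgals7, Nccrp1 and Aqp3, the same as with WT day 8. This could not be otherwise, since WT day 8 was highest for all 10 members and flox/- day 4 thus set the gap. It is no check of the WT day 8 array.

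The pluripotent and MEF arrays played no part in the contrast that chose the members, and they were compared by limma. Aqp3, Sfn and Cyp4f39 rose in pluripotent lines, and the other 7 members did not pass. Aqp3 was 9.87 ± 0.51 (SD, n = 4) in pluripotent lines and 6.68 ± 0.19 (SD, n = 3) in MEF, 9.11-fold higher (log2 difference 3.19 ± 0.28 SE, limma adjusted p = 9.19e-05). Sfn was 9.50 ± 0.67 against 6.88 ± 0.68, 6.14-fold higher (2.62 ± 0.43 SE, limma adjusted p = 0.00151). Cyp4f39 was 6.12 ± 0.37 against 5.12 ± 0.11 (0.998 ± 0.20 SE, limma adjusted p = 0.0042). For each of these genes the lowest pluripotent array was above the highest MEF array. The same held for Alox12b (5.01 against 4.95), which did not pass. The share of all genes for which it held was not counted.

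Limma called 30.1% of all genes higher and 29.9% lower in pluripotent lines, 60.0% in all, so 3 of 10 higher is the share of all genes. Of the other members, Krtdap differed by 0.29 ± 0.28 SE (limma adjusted p = 0.393), Alox12b by 0.19 ± 0.10 SE (limma adjusted p = 0.126) and Mall by 0.18 ± 0.11 SE (limma adjusted p = 0.201). Nccrp1 (0.12), Lgals7 (0.03), Aldh3a1 (0.0022) and Dsg3 (-0.10) lay closer to 0, with standard errors of 0.11 to 0.16, at signal near the background in both states. Arrays of different genotype stood as replicates here, and nothing says that they came from separate embryos, so the p-values measure the spread between these arrays alone. When all 12 arrays were fitted together, so that the spread of the DOX arrays entered, Sfn (limma adjusted p = 0.0516) and Cyp4f39 (limma adjusted p = 0.595) no longer passed.

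**Figure D3:**
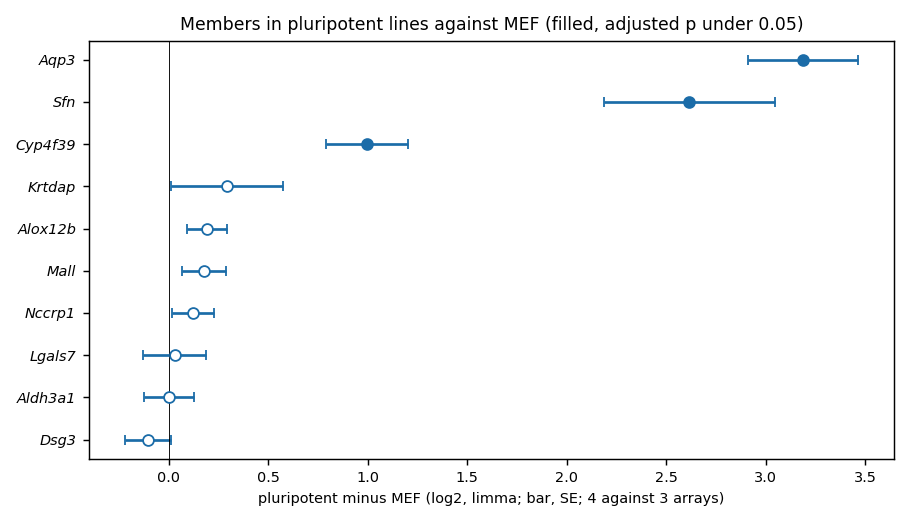
Log2 difference of the 4 pluripotent arrays from the 3 MEF arrays (horizontal axis) for each of the 10 genes (vertical axis), with the standard error of the limma fit as bars and filled points for an adjusted p under 0.05. Aqp3, Sfn and Cyp4f39 are filled, at 3.19, 2.62 and 0.998, and the others lie between -0.10 and 0.29.

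Among themselves the members were correlated over the 12 arrays, with a median r of 0.72 over 45 pairs, from 0.22 (Sfn with Aldh3a1) to 0.99 (Alox12b with Dsg3). All points share the WT day 8 array, and without it the median was 0.47, with a range from -0.23 to 0.98 (Lgals7 with Nccrp1). Without flox/- day 4 as well it was 0.28. The genes closest to the mean profile of the members over the 12 arrays were Aloxe3 (r = 0.99), Pdzd7, Mal2, Ovol1, Mal, Cwh43, Krt14, Ly6g6c, Tbc1d24 and Krt6a (r = 0.98 each). Over the 11 arrays without WT day 8 these had r from 0.88 (Mal2) to 0.95 (Pdzd7). These genes were picked by their r over all 12 arrays, and the 11 still include flox/- day 4, so this is no check. Their r without both arrays was not computed.

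Singly, Alox12b was most like S100a14, Dsg3 like Trim29, Mall like the acute phase gene Saa1 and Nccrp1 like Krt6a, each at r = 0.998 over the 12 arrays, and Krtdap (r = 0.98) and Lgals7 (r = 0.99) were both most like Alox8. Cyp4f39 was most like Atp6v1c2 (r = 0.99), Aqp3 like Pak4 (r = 0.98), Aldh3a1 like Ano1 (r = 0.96) and Sfn like Rab11fip1 (r = 0.95). These likenesses carry no test.

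Other genes of the epidermis were taken from 6 lists with 112 entries, of which 76 were kept. Some of the kept genes passed the filter through WT day 8 alone, such as Sprr1b, Krt16 and Cers3. The filter thus raises the share of kept list genes that are high on WT day 8, and the counts are a description. The same limit holds for the counts of each list, of the relatives and of the neighbours below. WT day 8 was more than 2-fold above the other 4 DOX arrays for 44 of the 76, against 5.75% of all genes kept. Both WT day 8 and flox/- day 4 were above the other 3 by 2-fold for 12 of the 76, against the 0.828% given above, and the median gap was -0.02 against -0.48. In pluripotent lines against MEF, limma called 21 of 76 higher and 14 lower, beside 30.1% and 29.9% of all genes, with a median of 0.10 against 0.03 over all genes.

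In the barrier lipid list, 5 of 11 kept genes were more than 2-fold higher on WT day 8 than on the other 4 DOX arrays, and 1 had a gap past 2-fold. Cers3, the ceramide synthase of the barrier, was 9.79 on WT day 8, 5.21 on flox/- day 4 and 4.69 to 4.74 on the other DOX arrays. Abca12, the transporter that loads lipids into lamellar granules, was 9.68, 4.83 and 4.34 to 4.60 on these arrays. Aloxe3, whose enzyme acts directly after Alox12b, was 9.79, 6.87 and 5.52 to 6.23, and it also rose in pluripotent lines by limma (0.36 ± 0.10 SE, adjusted p = 0.019). The latter was Dgat2, whose enzyme makes triglycerides, at 10.12 on WT day 8 and 10.92 on flox/- day 4 against 7.17 to 8.05, and it was also high in -/- ESC (9.95).

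In the cornified envelope list, 20 of 33 measured genes were kept. Of these 20, 18 were 2-fold higher on WT day 8 than on the other 4 DOX arrays. On flox/- day 4, 2 were more than 2-fold higher than on the other 3, while 8 had a gap above 0. The former 2 were the crosslinking enzyme gene Tgm3 (11.34 on WT day 8, 8.42 on flox/- day 4 and 5.65 to 6.24 on the others) and the small proline-rich protein gene Sprr1a (11.85, 8.39 and 6.16 to 6.78, but also 8.55 in WT MEF). Dmkn and Sbsn encode secreted proteins of differentiating keratinocytes, as Krtdap does. Dmkn was 9.83 on WT day 8 and 6.29 on flox/- day 4, where WT day 11 had 6.42, so flox/- day 4 did not stand above the other DOX arrays as it did for Krtdap. Sbsn was 9.59 on WT day 8 and 6.96 on flox/- day 4, below the 8.12 of -/- MEF. Some of the best known envelope genes were dim: Ivl (6.11 on WT day 8) and Lor (6.31) did not pass the array median on any array, though on WT day 8 they were 1.13 and 1.20 above the highest of the other 11 arrays. Flg2 (4.24) was dim on all arrays and not highest there.

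Of 12 kept desmosome and junction genes, 5 were 2-fold higher on WT day 8 than on the other 4 DOX arrays and 3 had a gap past 2-fold, the plakophilin gene Pkp1, Perp and the desmocollin gene Dsc2. Pkp1 was 11.36 on WT day 8, 9.36 on flox/- day 4 and 6.34 to 7.05 on the others. Dsg2, the desmoglein of simple epithelia and the neighbour of Dsg3, was 8.56 on WT day 8 but 6.15 on flox/- day 4, and was highest on flox/- day 8 (9.69). It rose 15.5-fold in pluripotent lines (limma adjusted p = 6.71e-06), unlike Dsg3 at -0.10. Among 7 basal attachment genes, 5 were 2-fold higher on WT day 8 and 0 had a gap past 2-fold. The largest gaps were those of Col17a1 (0.45) and Col7a1 (0.15), and Lamb3 was 3.60 above all other arrays on WT day 8.

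Of 19 kept epidermal transcription factors, 4 were 2-fold higher on WT day 8 than on the other 4 DOX arrays and 0 had a gap past 2-fold. On flox/- day 4, 2 were more than 2-fold above the other 3 DOX arrays, as were 1.72% of all genes kept. There 7 were more than 2-fold below the highest of these 3, as were 2123 of all 13044 genes kept. Among the 7 was Klf4 (7.20 against 10.46 on flox/- day 8), which is also a factor that DOX switches on. Tfap2a, which encodes AP-2 alpha, had the largest gap of the list (0.79), at 9.25 on WT day 8 and 9.57 on flox/- day 4. Ehf was 10.21 there and 5.99 on flox/- day 4, and Ovol1 was 9.07 and 6.31. Trp63, which encodes the main regulator of stratified epithelia, p63, was not kept. Its signal was 5.56 on WT day 8, within the range of the other 11 arrays (5.54 to 6.01). Zfp750 (9.47) and Grhl1 (7.04) were, like Tfap2a, highest on flox/- day 4. Zfp750, Grhl1 and Grhl3 also rose in pluripotent lines by limma (2.57, adjusted p = 5.11e-05; 0.81, adjusted p = 0.00357; 3.67, adjusted p = 6.69e-05).

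Of 11 measured keratin genes of the epidermis, 7 were kept. All 7 were 2-fold higher on WT day 8 than on the other 4 DOX arrays, and 6 had a gap past 2-fold, all but Krt1. Krt6b was 9.28 on WT day 8 and 6.74 on flox/- day 4 (gap 2.69), and Krt13 was 9.93 and 8.38 (gap 2.15). Krt14 was 12.18 on WT day 8 and 7.73 on flox/- day 4. Krt5, the usual partner of Krt14, was not kept, with 5.37 on WT day 8 and 5.80 on flox/- day 4. Krt10 (6.05 on WT day 8) and Krt15 (5.52) were not kept either.

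Relatives of the members by family showed the pattern in part. Of 29 kept, 7 were 2-fold higher on WT day 8 than on the other 4 DOX arrays and 3 had a gap past 2-fold, Mal, Alox8 and Mal2. Mal was 11.30 on WT day 8 and 8.19 on flox/- day 4, and Mal2 was 12.02 and 8.09, whereas Mall was near background on flox/- day 4. The other 14-3-3 genes (Ywhab, Ywhae, Ywhag, Ywhah, Ywhaq and Ywhaz) had gaps between -0.33 and 0.07. By limma, Lgals1 (-1.79, adjusted p = 0.00589), Lgals3 (-2.13, adjusted p = 0.0021), Lgals8 (-2.16, adjusted p = 9.75e-05) and Lgals9 (-2.74, adjusted p = 0.000178) fell in pluripotent lines. Lgals7 did not pass.

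Several relatives are also neighbours on the chromosome. Of the 20 protein-coding genes of the array that lie next to a member in RefSeq, 14 were kept and 6 of these were more than 2-fold higher on WT day 8 than on all other arrays (3.74% of all genes): Aloxe3 and Alox8 beside Alox12b, Mal beside Mall, Dmkn beside Krtdap, Aqp7 beside Aqp3 and Pak4 beside Nccrp1. Alox8 and Mal had a gap past 2-fold. The neighbours of Cyp4f39 (Cyp4f16, with a gap of -0.22), Aldh3a1 (Aldh3a2, -0.24) and Sfn (Gpn2, -0.36) did not have one.

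**Figure D4:**
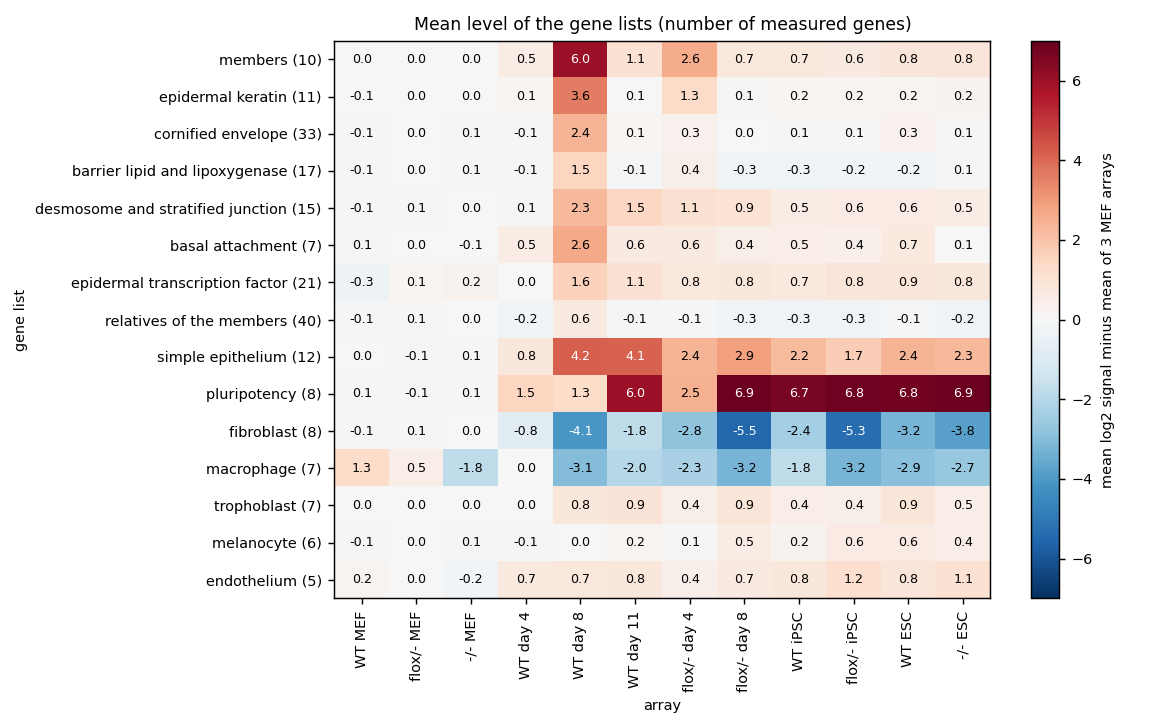
Mean log2 signal of each gene list (vertical axis, with the number of measured genes) on each array (horizontal axis), as the difference from the mean of the 3 MEF arrays, in colour and as a number in each cell. The members and the 6 epidermal lists have their highest cell on WT day 8, where the pluripotency list is far below its level on WT day 11 and flox/- day 8.

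Markers of other cell types were read on the same arrays. The mean signal of 8 fibroblast markers was 11.61 to 11.79 on MEF arrays, 10.90 on WT day 4, 9.91 on WT day 11, 8.90 on flox/- day 4, 7.61 on WT day 8 and 6.18 on flox/- day 8. In pluripotent lines it ranged from 6.35 (flox/- iPSC) to 9.30 (WT iPSC). The mean of 8 pluripotency markers was 6.40 on WT day 8, 6.58 on WT day 4 and 7.60 on flox/- day 4, against 11.07 on WT day 11, 11.94 on flox/- day 8 and 11.75 to 11.95 in pluripotent lines. The mean of 12 simple epithelium markers was 10.29 on WT day 8 and 10.26 on WT day 11, and lower, at 8.48, on flox/- day 4. Thus the arrays on which most members were high had a low mean of pluripotency markers, as had WT day 4, where only Aldh3a1 was high. Single markers differed from this mean. On flox/- day 4, 5 of the 8 were more than 2-fold above flox/- MEF, among them Nanog (10.36) and Utf1 (9.51). On WT day 8, 2 of the 8 were above WT MEF by 2-fold, and Pou5f1 (12.63) was higher than on any other array. Pou5f1 (Oct4) and Sox2 are also among the factors that DOX switches on.

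Trophoblast markers (7 measured, 4.93 to 4.999 in MEF) had means of 5.77 on WT day 8 and 5.37 on flox/- day 4. These means were 5.81 to 5.83 on flox/- day 8 and WT day 11. Cdx2 and Tpbpa passed the array median on no array. Of the 5 kept, only Elf5 stood 2-fold above all other arrays on WT day 8, at 8.44 against 4.98 or less elsewhere. Plac1 went the other way, at 4.60 against 8.48 on WT day 11, as did Eomes, at 5.55 against 7.81 on flox/- day 8. Ascl2 (6.40) and Hand1 (6.42) were near the array median on WT day 8. Macrophage markers were at 5.80 and 6.57 on WT day 8 and flox/- day 4, below the 7.09 to 10.15 of MEF. Melanocyte (5.12 and 5.22) and endothelial markers (6.06 and 5.73) were within the range of the other arrays. The part of cell mixture in the members' signal was not tested.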

How the data were processed

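RNA was measured on 12 arrays, 1 per genotype and stage, so that groups of arrays of different genotype stood as replicates. The values deposited by the authors are log2 signals of 35512 probe sets, from 3.11 to 13.99; for their summary and normalization the method is not given in the sources used here. Column medians of the deposited values differed by up to 0.12, above a limit of 0.1, so the arrays were quantile normalized. GEO's platform annotation listed 23410 probe sets, of which 21789 had 1 symbol and 1621 had several and were not used. The probe set with the highest mean stood for each of 19938 genes. The 13044 genes above the array median on at least 1 array were kept. Pluripotent and MEF arrays were compared with limma 3.58.1 in R 4.3.3, with Benjamini-Hochberg adjustment over all kept genes and a threshold of 0.05. On simulated data for this comparison, over 13044 genes, it recovered 95 of 100 genes changed 2-fold and 100 of 100 changed 4-fold, with 10 false calls. The simulation gave every gene the same normal spread, below that of Aqp3 and Sfn in pluripotent lines, and changed no other genes. In the real comparison 60.0% of genes were called, so the simulation checks the code and does not give the power or error there.

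The contrast of WT day 8 and flox/- day 4 with the other DOX arrays is given by its gap, the lower of the former minus the highest of the latter. The number of arrays limits the precision. Members and lists were chosen with earlier results of these data known. Named genes are the members, those of each list with the 3 largest gaps or a role close to a member, and the 10 genes most like the members' mean standardised profile; others named, such as Hbb-y, Klf4, Elf5, Zfp750 and Grhl1, were chosen after their values were seen. Alternatives were other normalizations, filters, probe sets and models and leaving out each array. Upstream sequences are RefSeq's for GRCm38.p6.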

Additional observations from a re-analysis of the deposited data

Results flagged for a closer look

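Within the 5 DOX arrays, WT day 8 stood apart from the other 4 for 4 members. The gap to the nearest array, as a share of the whole range of the group, was 0.978 for Mall, 0.877 for Dsg3, 0.846 for Alox12b and 0.716 for Nccrp1. The members were chosen for their signal on this array, so these shares are a description and no test.

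Within the 4 pluripotent arrays, flox/- iPSC was low for Sfn, at 8.51 against 9.70 to 9.90, with a share of 0.859 against a critical value of 0.829 for 4 arrays. This was 1 of 10 genes examined in these arrays, and chance gives about 1 in 20. By the other Sfn probe set, flox/- iPSC was nearer to the rest, at 8.01 against 8.83 to 9.08. Its share was not computed, so the flag stands for 1 probe set alone.

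At day 4, the difference of Sfn and Aqp3 from the MEF of the same genotype was unlike in WT and flox/- cells. Sfn was -1.39 in WT and 1.75 in flox/- cells, which is 3.14 apart, and Aqp3 was -0.16 and 4.05, which is 4.21 apart. The -0.16 of Aqp3 in WT is 1.12-fold and is not read as a fall. With 1 array on each side the difference was not tested.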

How the results depend on the processing

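No paired analysis was possible because the labels carry no replicate numbers; genotype, which the groups share in part, served as a block in its place and left 3 members higher and 0 lower, with 7532 genes called as a fixed and 7816 as a random block. With all 12 arrays in 1 fit, limma called 1 member higher in pluripotent lines in place of 3; Sfn (2.62, adjusted p = 0.0516) and Cyp4f39 (0.998, adjusted p = 0.595) lost the call. Leaving out each array in turn gave 3 members higher and 0 lower each time, and 6449 to 7762 genes called in place of 7827. Differences near 0 changed sign: Lgals7 ranged from -0.097 to 0.095 and Aldh3a1 from -0.068 to 0.072 over the left-out arrays, and Aldh3a1 was -0.0099 with genotype as a block. The members past a 2-fold gap numbered 5 to 10, those that did not overlap 7 to 10, and all genes past 2-fold 136 to 928 in place of 108 when 1 DOX array was left out, where fewer arrays make the gap easier to pass. Requiring signal above the array median on at least 3 arrays left 2 members past 2-fold and 2 that did not overlap, since fewer members were kept. Most members are near the array background outside WT day 8 and flox/- day 4, which limits the folds.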
